A study of Mus musculus with 3 samples.

Results

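Killer cell lectin-like receptors are surface receptors that natural killer (NK) cells use to read MHC class I molecules and stress-induced ligands on other cells, and CD8+ T cells can acquire them after strong or repeated stimulation. The 10 genes described here were taken by symbol from the 33696 genes counted in CD8+ T cells from mouse melanoma, *Klra5*, *Klra7*, *Klrc1*, *Klrd1*, *Klrk1*, *Klre1*, *Klrh1*, *Klrg1*, *Klrb1c* and *Styk1*, and all 10 were found. Of these, 9 are among the 27 genes with a Klr symbol, and *Styk1*, a receptor-like kinase gene transcribed in NK cells, is not itself a lectin. The cells were TCR-transgenic pmel T cells, which recognize the melanoma antigen gp100 and carry the Thy1.1 marker, after culture with gp100 peptide and cytokine and transfer into irradiated C57BL/6 mice with B16F10 melanoma. In the sIL-2 group, the cells were preconditioned with sIL-2 (an engineered IL-2 biased to the β and γ receptor chains) and the mice received sIL-2. In the sIL-2 + IL-21 group, both cytokines were present in culture and, per the methods, the mice then received sIL-2 alone. In the IL-2/21-Trikine group, culture and mice both received the Trikine, a molecule that joins the IL-2Rβ, γc and IL-21R chains. All mice followed the low-dose regimen, and tumors were taken on day 18 after tumor injection, from which viable cells double positive for Thy1.1 and CD8 were sorted. The methods give an age of 5 to 6 weeks for C57BL/6 mice as bought for the site that kept the pmel mice, and the number of mice pooled was not found in the sources used here. Cells are named by the cytokine of their group.

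Each group was 1 library of 10x 3′ single-cell RNA-seq, without replicates, so no group was tested against another, and every interval in brackets is an exact 95% interval that covers counting error only. The libraries kept 7760 sIL-2 cells, 13299 IL-2/21-Trikine cells and 9798 sIL-2 + IL-21 cells, with medians of 12882.5, 10254 and 14055.5 UMIs per cell (UMIs are barcodes by which captured RNA molecules are counted). The IL-2/21-Trikine library stood apart by depth, with 13.3% of cells below 2000 UMIs against 3.43% and 3.72%. Between 18 and 41 cell barcodes were shared by any pair of libraries. *Cd3e* was found in 90.1% to 96.9% of cells, so the T cell label held. Of 7 genes chosen to mark NK cells, *Ncr1*, which encodes NKp46, lay between 0.0720 and 0.202 CPM, and *Cma1* had 0, 1 and 4 UMIs. *Eomes* was at 11.8 CPM in sIL-2 cells, 4.95 CPM in IL-2/21-Trikine cells and 2.64 CPM in sIL-2 + IL-21 cells. It was found in 9.33%, 3.57% and 2.91% of cells in that order. *Khdc1a* was at 1.61, 0.132 and 0.726 CPM, and *Xcr1* lay between 0.0952 and 0.177 CPM. *Gzma* and *Ccr2*, which effector T cells also express, made up most of the 1249 to 4909 CPM summed over that list. *Gzma* itself was at 3917 CPM in sIL-2 cells, 1093 CPM in IL-2/21-Trikine cells and 4722 CPM in sIL-2 + IL-21 cells.

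The receptors fall into a few molecular systems. CD94, encoded by *Klrd1* (ENSMUSG00000030165), pairs with NKG2A from *Klrc1* (ENSMUSG00000030167) to form an inhibitory receptor for the nonclassical MHC molecule Qa-1, whose heavy chain is encoded by *H2-T23*. NKG2D, encoded by *Klrk1* (ENSMUSG00000030149), is an activating receptor that signals through the adaptor DAP10, encoded by *Hcst*, and binds stress-induced ligands. The Ly49 receptors of *Klra5* (ENSMUSG00000030173, Ly49E) and *Klra7* (ENSMUSG00000067599, Ly49G) carry inhibitory motifs, as does *Klrg1* (ENSMUSG00000030114), a cadherin receptor often used to mark short-lived effector T cells. *Klrb1c* (ENSMUSG00000030325) encodes the activating receptor NK1.1. *Klre1* (ENSMUSG00000050241) encodes a chain that pairs with other lectin-like receptors, and *Klrh1* (ENSMUSG00000071158) and *Styk1* (ENSMUSG00000032899) complete the set.

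All 10 genes lie on chromosome 6 of the mouse reference, most of them in the NK gene complex, in the order *Klrg1*, *Klrb1c*, *Klre1*, *Klrd1*, *Klrk1*, *Klrc1*, *Klrh1*, *Klra5*, *Klra7* and *Styk1*. RefSeq promoter sequences on GRCm38.p6 were matched for 7 of the 10, with 9 start sites in all. The stretches printed are the 250 bases before a start, written 5′ to 3′ along the gene's strand. *Klra5* and *Klra7* are printed because they are paralogs. Each stretch lies before a start and not in the transcript that begins there. Their similarity therefore does not show whether reads of these genes are mixed in counting.
*Klra5*, chr6:129913225-129913474, minus strand: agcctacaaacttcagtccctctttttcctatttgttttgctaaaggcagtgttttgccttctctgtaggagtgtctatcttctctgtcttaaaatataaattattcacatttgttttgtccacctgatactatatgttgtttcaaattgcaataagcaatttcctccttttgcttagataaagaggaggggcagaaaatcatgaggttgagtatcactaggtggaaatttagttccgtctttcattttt
*Klra7*, upstream start, chr6:130233323-130233572, minus strand: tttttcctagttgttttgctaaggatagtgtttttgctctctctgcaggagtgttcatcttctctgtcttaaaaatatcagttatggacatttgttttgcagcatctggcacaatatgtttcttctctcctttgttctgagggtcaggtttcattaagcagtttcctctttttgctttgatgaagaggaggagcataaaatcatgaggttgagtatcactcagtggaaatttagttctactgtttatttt
*Klra7*, downstream start, chr6:130231688-130231937, minus strand: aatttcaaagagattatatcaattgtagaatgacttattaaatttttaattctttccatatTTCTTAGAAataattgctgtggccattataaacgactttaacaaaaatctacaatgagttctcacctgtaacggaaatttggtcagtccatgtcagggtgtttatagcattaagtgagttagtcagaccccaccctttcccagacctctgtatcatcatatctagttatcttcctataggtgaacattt
Capitals mark the STAT motif TTCNNNGAA. In a global alignment, the *Klra5* stretch and that of the upstream *Klra7* start had the same base at 83.7% of the 227 positions aligned without a gap. Every other pair of stretches of different genes among the 9 lay between 53.6% and 73.4%. The downstream *Klra7* start was the 1 of 9 that held the STAT motif, 189 bases before the start, and 7.02% of 32851 mouse promoter stretches of the same length hold it on either strand.
*Klrk1*, chr6:129623865-129624114, minus strand: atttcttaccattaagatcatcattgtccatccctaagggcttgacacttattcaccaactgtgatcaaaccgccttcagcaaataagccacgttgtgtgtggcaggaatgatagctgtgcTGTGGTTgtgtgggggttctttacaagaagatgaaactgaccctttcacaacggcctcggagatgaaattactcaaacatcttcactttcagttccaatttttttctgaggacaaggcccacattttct
*Klre1*, upstream start, chr6:129577963-129578212, plus strand: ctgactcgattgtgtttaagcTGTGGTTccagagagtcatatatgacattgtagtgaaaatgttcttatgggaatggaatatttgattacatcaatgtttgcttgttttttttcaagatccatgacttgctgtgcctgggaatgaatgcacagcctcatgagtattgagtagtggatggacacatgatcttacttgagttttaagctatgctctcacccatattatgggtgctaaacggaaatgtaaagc
Here capitals mark the RUNX motif TGTGGTT, which 4.40% of all stretches hold on either strand. These are the 2 of the 9 stretches that held it, 129 bases before the *Klrk1* start and 229 bases before the *Klre1* start, and are shown because *Runx3* is among the transcription factors measured. The T-box motif AGGTGTGA was in 0 of 9 and in 1.12% of all. Such matches describe letters in a window and say nothing of binding.

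Over whole libraries, the receptors split into a widely found trio (*Klrd1*, *Klrk1* and *Klrc1*) and a restricted group of 7, each in fewer than 1 in 5 cells of any library at equal depth, and the restricted group held the largest differences between treatments. The word restricted refers to that depth only, since *Klre1* was found in 35.7% to 52.9% of cells at full depth. Summed over the 10 genes, the receptors reached 2607 CPM in sIL-2 cells, 2095 CPM in IL-2/21-Trikine cells and 1973 CPM in sIL-2 + IL-21 cells, where CPM is the UMIs of a gene per 1000000 UMIs of the library. The sum was therefore highest in sIL-2 cells, with log2 ratios to it of -0.32 [-0.32, -0.31] in IL-2/21-Trikine cells and -0.40 [-0.41, -0.40] in sIL-2 + IL-21 cells. *Klrd1* alone gave 49.5%, 47.0% and 48.9% of the summed UMIs (sIL-2, IL-2/21-Trikine, sIL-2 + IL-21). The sum thus follows this gene more than any other, here and in later comparisons. Taking a log2 ratio of 0.5 or more as a difference worth counting, 0 of 10 genes were higher and 5 lower in IL-2/21-Trikine cells than in sIL-2 cells, where 3.45% of 11275 genes at 1 CPM or more were higher and 7.42% lower. The 5 were *Klra5*, *Klre1*, *Klrh1*, *Klrg1* and *Styk1*. Against sIL-2 + IL-21, 1 was higher and 4 lower in IL-2/21-Trikine cells, with 4.65% and 5.66% in the background. The higher gene was *Klrk1*, and the lower genes were *Klra5*, *Klra7*, *Klrg1* and *Klrb1c*. With sIL-2 + IL-21 over sIL-2, 2 were higher and 5 lower, with 7.29% and 11.3% in the background. The higher genes were *Klra7* and *Klrb1c*, and the lower genes were *Klrk1*, *Klre1*, *Klrh1*, *Klrg1* and *Styk1*. The median log2 ratio over the 10 genes was -0.55, -0.30 and -0.50 in these 3 comparisons, and that of all genes at 1 CPM or more was -0.08, 0.00 and -0.08. The other 9 genes passed the limit of 1 CPM in the mean of the libraries, and *Klra7* lay below 1 CPM in all 3 and did not enter the background. Over those 9 genes, the counts higher and lower were 0 and 5, 1 and 3, and 1 and 5 in the same comparisons.

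**Figure D1:**
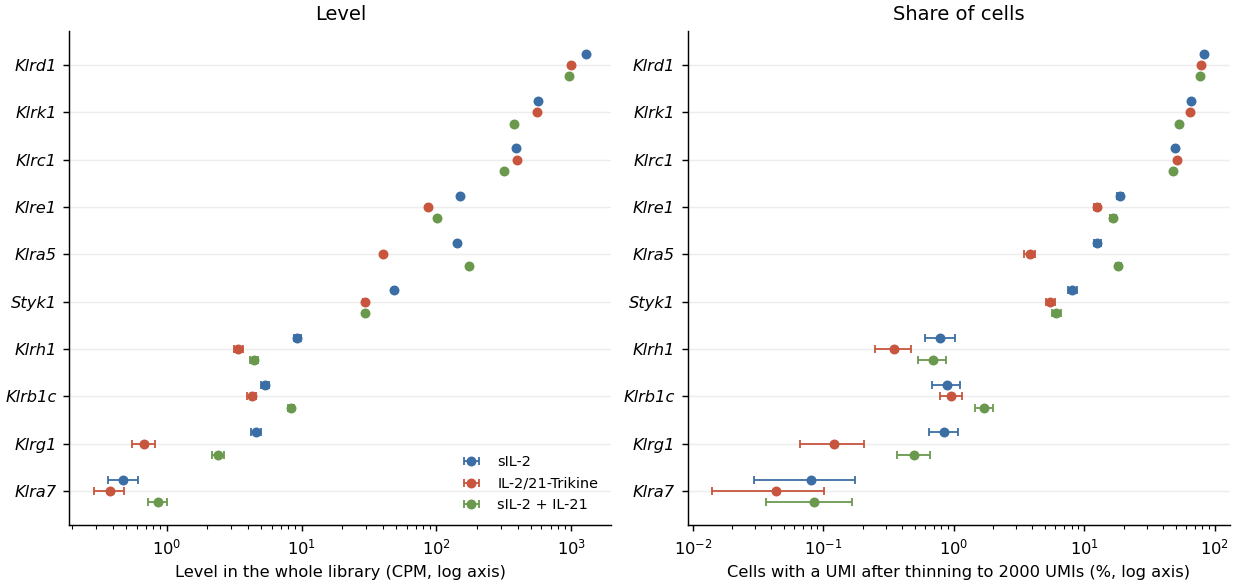
Level of each of the 10 receptor genes over the whole library (left, CPM, log axis) and share of cells with a UMI of it after each cell was thinned to 2000 UMIs (right, percent, log axis), for the 3 libraries, with exact 95% intervals for counting error. The IL-2/21-Trikine point of *Klra5* sits at 40.1 CPM, left of 142 CPM in sIL-2 cells and 174 CPM in sIL-2 + IL-21 cells, while the 3 points of *Klrc1* lie between 316 and 394 CPM.

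*Klrd1* was at 1291 CPM [1285, 1297] in sIL-2 cells, 985 CPM [979.9, 989] in IL-2/21-Trikine cells and 964 CPM [959, 969] in sIL-2 + IL-21 cells. It was thus highest in sIL-2 cells, and the other libraries differed by a log2 ratio of only 0.03 [0.02, 0.04]. Its partner *Klrc1* was at 387 CPM [384, 391], 394 CPM [391, 397] and 316 CPM [313, 318] in the same order, level between sIL-2 and IL-2/21-Trikine (0.03 [0.01, 0.04]) and lower in sIL-2 + IL-21 cells. *Klrk1* was at 568 CPM [564, 572], 551 CPM [548, 555] and 374 CPM [371, 377]. NKG2D transcripts were therefore higher in IL-2/21-Trikine cells than in sIL-2 + IL-21 cells, at a log2 ratio of 0.56 [0.54, 0.57], and close to those in sIL-2 cells (-0.04 [-0.06, -0.03]).

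Among the inhibitory receptors of the restricted group, *Klra5* separated IL-2/21-Trikine from both other libraries. Its level was 142 CPM [140, 145] in sIL-2 cells, 40.1 CPM [39.2, 41.1] in IL-2/21-Trikine cells and 174 CPM [172, 176] in sIL-2 + IL-21 cells. IL-2/21-Trikine was the low library, at log2 ratios of -1.83 [-1.87, -1.79] and -2.11 [-2.15, -2.07], or 0.282 and 0.231 times the level of the other libraries. *Klrg1* was also lowest in IL-2/21-Trikine cells, at low counts, and was highest in sIL-2 cells. It had 599 UMIs (4.60 CPM [4.24, 4.98]) in sIL-2 cells, 113 UMIs (0.678 CPM [0.558, 0.815]) in IL-2/21-Trikine cells and 405 UMIs (2.41 CPM [2.18, 2.66]) in sIL-2 + IL-21 cells. The IL-2/21-Trikine level was thus lower on the log2 scale, at -2.76 [-3.07, -2.47] against sIL-2 and -1.83 [-2.14, -1.53] against sIL-2 + IL-21. *Klra7* rested on 62, 63 and 144 UMIs (0.476, 0.378 and 0.857 CPM). Its difference between IL-2/21-Trikine and sIL-2 was not detectable at this depth (-0.33 [-0.86, 0.20]). Reads of *Klra7* and *Klra5* could be split between Ly49 paralogs by the counting, so both are uncertain in that respect.

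The pairing chain *Klre1* and *Klrh1* were highest in sIL-2 cells. *Klre1* was at 149.8 CPM [148, 152] in sIL-2 cells, 85.9 CPM [84.5, 87.3] in IL-2/21-Trikine cells and 100.1 CPM [98.6, 102] in sIL-2 + IL-21 cells, and its log2 ratio for IL-2/21-Trikine over sIL-2 was -0.80 [-0.83, -0.77]. *Klrh1* was at 9.30 CPM [8.78, 9.84], 3.41 CPM [3.14, 3.70] and 4.46 CPM [4.15, 4.79] in that order, which put IL-2/21-Trikine cells at -1.45 [-1.59, -1.30] against sIL-2 cells on the log2 scale. *Styk1* was at 48.6 CPM [47.4, 49.8], 29.6 CPM [28.8, 30.4] and 29.7 CPM [28.8, 30.5]. For *Styk1*, a difference between the last 2 was not detectable (0.00 [-0.06, 0.05]), and both lay below sIL-2. *Klrb1c*, like *Klra5*, was highest in sIL-2 + IL-21 cells. It was at 5.36 CPM [4.97, 5.77] in sIL-2 cells, 4.28 CPM [3.97, 4.60] in IL-2/21-Trikine cells and 8.40 CPM [7.96, 8.85] in sIL-2 + IL-21 cells, and its log2 ratio for IL-2/21-Trikine over sIL-2 + IL-21 was -0.97 [-1.11, -0.84].

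A level over a library can fall because fewer cells carry a transcript or because each carries less. To compare cells at equal depth, each was thinned at random to 2000 UMIs, which left 7494 sIL-2 cells, 11524 IL-2/21-Trikine cells and 9434 sIL-2 + IL-21 cells. *Klra5* was then found in 12.6% [11.9, 13.4] of sIL-2 cells, 3.80% [3.46, 4.17] of IL-2/21-Trikine cells and 18.2% [17.4, 19.0] of sIL-2 + IL-21 cells, and without thinning in 23.03%, 7.47% and 34.3%. The share was therefore lowest in the IL-2/21-Trikine library either way. In full-depth cells with *Klra5*, its mean was 10.4 UMIs in sIL-2 cells, 6.74 in IL-2/21-Trikine cells and 8.67 in sIL-2 + IL-21 cells, and 2.03, 1.79 and 1.88 after thinning. Since a cell enters these means only with at least 1 UMI, fewer cells with *Klra5* and fewer UMIs per cell cannot be told apart here.

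*Klrd1* was found in 83.1% [82.3, 84.0] of thinned sIL-2 cells, 78.5% [77.8, 79.3] of IL-2/21-Trikine cells and 77.3% [76.4, 78.1] of sIL-2 + IL-21 cells, and in 90.0% to 95.9% without thinning. *Klrk1* was found in 66.1% [65.0, 67.1], 64.0% [63.1, 64.8] and 52.9% [51.9, 53.9] in the same order (93.6%, 89.1% and 91.9% unthinned). *Klrc1* was found in 49.9% [48.8, 51.0], 51.6% [50.7, 52.6] and 48.0% [46.9, 49.0] (84.7%, 81.9% and 90.8% unthinned). CD94, NKG2D and NKG2A transcripts were thus found in most of these T cells in every library at full depth. *Klre1* was found in 18.7% [17.9, 19.7], 12.5% [11.9, 13.1] and 16.6% [15.9, 17.4] of thinned cells (49.5%, 35.7% and 52.9% unthinned). *Styk1* was found in 8.10% [7.49, 8.74], 5.48% [5.08, 5.92] and 6.11% [5.63, 6.61] (30.1%, 18.5% and 26.5% unthinned). Both genes were in fewer thinned IL-2/21-Trikine cells than in sIL-2 cells.

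The remaining 4 genes were rare. *Klrb1c* was found in 0.881% [0.682, 1.12] of thinned sIL-2 cells, 0.955% [0.785, 1.15] of IL-2/21-Trikine cells and 1.70% [1.45, 1.98] of sIL-2 + IL-21 cells (5.08%, 3.83% and 8.60% unthinned). *Klrg1* was found in 0.841% [0.647, 1.07], 0.121% [0.0664, 0.204] and 0.498% [0.366, 0.662] (3.32%, 0.677% and 2.56% unthinned), and *Klrh1* in 0.787% [0.600, 1.01], 0.347% [0.248, 0.472] and 0.689% [0.532, 0.877] (2.04%, 0.820% and 1.91% unthinned). *Klra7* was found in 6, 5 and 8 thinned cells, or 17, 22 and 29 cells without thinning. The rare genes differed in how their UMIs were spread. For *Klrh1*, 88.3%, 83.5% and 74.8% of its UMIs were in cells with at least 5 of them, which were 63, 39 and 52 cells, and the highest single cell held 86 UMIs. For *Klrb1c*, 19.9%, 8.42% and 18.3% were in such cells, and the highest single cell held 14. A few strongly positive cells thus carried most of the *Klrh1* signal, while cells with *Klrb1c* held a mean of 1.77, 1.40 and 1.67 UMIs of it. For *Klra7*, 77.4%, 63.5% and 84.7% of UMIs were in cells with at least 5, which were 5, 5 and 11 cells. For *Klrg1*, 43.7%, 10.6% and 24.7% were in 34, 2 and 12 such cells. The intervals on levels and ratios treat UMIs as independent and do not cover such clumping.

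As a level in cells that should lack the receptors, 15 barcodes with UMIs of at least 3 of 12 myeloid markers and none of *Cd3e*, *Cd3d* or *Cd3g* were found in the 3 libraries, with a median of 2232 UMIs. Of the 8 that could be thinned, 1 had a *Klrk1* UMI and 0 had a UMI of the other 9 genes, which allows a share of up to 36.9%. This is too few cells to set a background for the rare genes.

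Counting how many of the 10 genes a thinned cell carried gave 2 genes as the most frequent number in every library, although in sIL-2 cells 2 (32.8%) and 3 (32.1%) were within counting error of each other. The mean number per thinned cell was 2.41 in sIL-2 cells, 2.17 in IL-2/21-Trikine cells and 2.22 in sIL-2 + IL-21 cells, and 3.87, 3.28 and 4.04 without thinning. The order of sIL-2 and sIL-2 + IL-21 thus depended on depth, with a ratio of 0.921 for sIL-2 + IL-21 over sIL-2 at 2000 UMIs per cell and 1.04 without thinning, while IL-2/21-Trikine stayed lowest. At least 1 of the 10 was found in 96.2% [95.8, 96.7], 95.5% [95.1, 95.9] and 93.9% [93.4, 94.4] of thinned cells. At least 3 were found in 47.0% [45.8, 48.1] of sIL-2 cells, 38.0% [37.1, 38.9] of IL-2/21-Trikine cells and 39.98% [39.0, 41.0] of sIL-2 + IL-21 cells. At least 5 were found in 2.92% [2.55, 3.33], 0.928% [0.762, 1.12] and 2.72% [2.41, 3.07]. The highest number in a thinned cell was 7, 6 and 7.

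**Figure D2:**
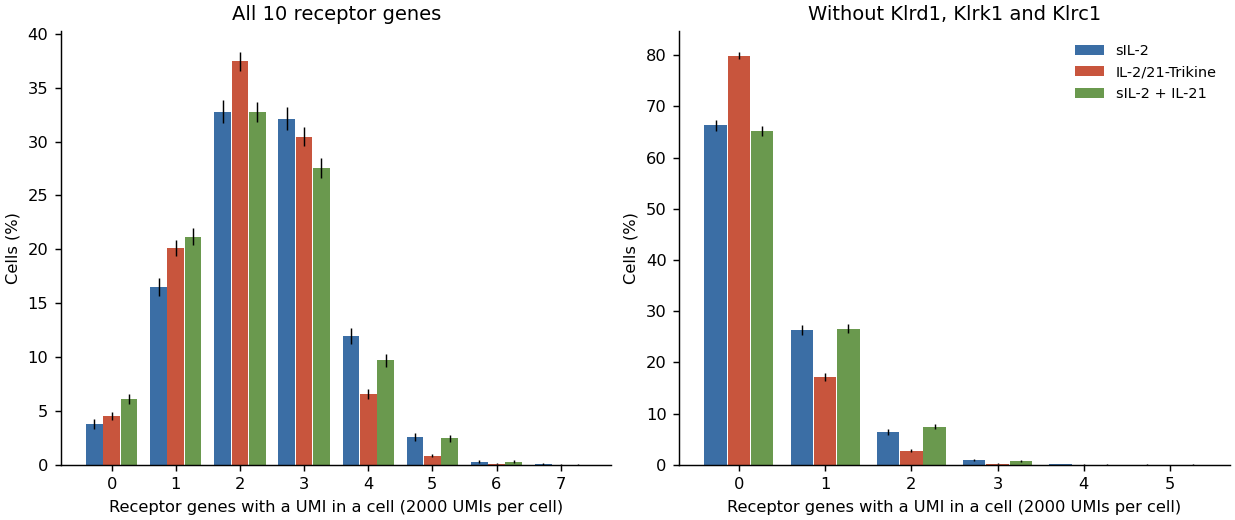
Share of cells (percent) by the number of receptor genes with a UMI, after thinning to 2000 UMIs, for all 10 genes (left) and for the 7 genes without *Klrd1*, *Klrk1* and *Klrc1* (right), with exact 95% intervals for counting error. In the right panel, cells with none of the 7 make up 79.9% of IL-2/21-Trikine cells, above 66.4% of sIL-2 cells and 65.2% of sIL-2 + IL-21 cells.

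Leaving out the widely found trio, a choice made after the values were seen, set the IL-2/21-Trikine library further apart. At least 1 of the other 7 genes was found in 33.6% [32.6, 34.7] of thinned sIL-2 cells, 20.1% [19.3, 20.8] of IL-2/21-Trikine cells and 34.8% [33.8, 35.8] of sIL-2 + IL-21 cells (64.5%, 46.9% and 69.9% unthinned). At least 2 were found in 7.33% [6.75, 7.94], 2.92% [2.62, 3.25] and 8.23% [7.68, 8.80]. The mean number of the 7 genes per cell in IL-2/21-Trikine cells was 0.553 times that in sIL-2 cells and 0.530 times that in sIL-2 + IL-21 cells. These means were 0.420, 0.232 and 0.439 genes (sIL-2, IL-2/21-Trikine, sIL-2 + IL-21). *Klra5* alone, found in 12.6%, 3.80% and 18.2% of thinned cells, made up a large part of the difference. The mean without *Klra5* was not computed. The 3 wide genes were found together in 30.6%, 28.3% and 22.7% of thinned cells, a different order, lowest in sIL-2 + IL-21 cells. Without thinning they were found together in 81.1%, 74.2% and 84.7% of cells, highest in sIL-2 + IL-21 cells. The order for the 3 wide genes thus depended on depth.

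Receptor genes were also asked about in pairs, by setting the share of thinned cells with both genes beside the product of the share of each. Of 45 pairs, 23 had a product of at least 10 cells in every library. In 15 of these the observed share was above the product in all 3 libraries, in 0 it was below in all 3, and in 6 the interval was above it in all 3. These 6 were *Klra5* with *Klre1*, *Klra5* with *Styk1*, *Klre1* with *Klrb1c*, *Klrd1* with *Klre1*, *Klrd1* with *Klrk1* and *Klrc1* with *Klrk1*. *Klrd1* with *Klrk1* gave only 1.02, 1.03 and 1.04 times the product (sIL-2, IL-2/21-Trikine, sIL-2 + IL-21). *Klra5* and *Styk1* were found together 1.74 [1.46, 2.06] times as often as the product in sIL-2 cells, 2.71 [2.09, 3.45] in IL-2/21-Trikine cells and 1.45 [1.23, 1.70] in sIL-2 + IL-21 cells. *Klra5* and *Klre1* gave 1.67 [1.49, 1.86], 2.23 [1.85, 2.66] and 1.64 [1.496, 1.79], and *Klre1* and *Klrb1c* gave 2.10 [1.37, 3.08], 2.48 [1.71, 3.46] and 1.73 [1.27, 2.31]. These restricted receptors thus lay in the same cells more often than their shares alone would give. Pairs of other genes were not counted in this way, so whether such an excess is particular to the receptors was not tested. For the CD94 and NKG2A chains, which act as a pair, the values were 1.03, 1.01 and 1.04, and *Klrd1* was found in most cells with or without *Klrc1*. *Klrd1* was found in 85.3%, 79.6% and 80.1% of cells with *Klrc1* and in 80.9%, 77.4% and 74.6% of cells without. *Klrd1* was also found in 89.9%, 83.8% and 86.8% of cells with *Klre1*, against 81.6%, 77.8% and 75.4% of cells without. Of the thinned cells with *Klra7*, 5 of 6 sIL-2 cells also had *Klra5*, against 0 of 5 IL-2/21-Trikine cells and 1 of 8 sIL-2 + IL-21 cells.

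The share of cells with UMIs of cycling genes also differed between the libraries. Cells with a UMI of *Mki67* or *Top2a*, genes of dividing cells, were 48.5% of sIL-2 cells, 52.0% of IL-2/21-Trikine cells and 62.2% of sIL-2 + IL-21 cells, at median depths of 18194, 14815 and 18931 UMIs. Those shares were at full depth, and a cell without such a UMI was not shown to be non-cycling. At 2000 UMIs per cell, *Mki67* was found in 712 of 7494, 1677 of 11524 and 1807 of 9434 cells in the same order. The 10 proliferation markers summed to 2457, 3634 and 4097 CPM. Cells with a *Mki67* or *Top2a* UMI had a lower summed receptor level than the rest of their library, at 2525 CPM against 2757 CPM in sIL-2 cells, 2017 CPM against 2272 CPM in IL-2/21-Trikine cells and 1834 CPM against 2477 CPM in sIL-2 + IL-21 cells. *Klrd1*, *Klrk1*, *Klrc1* and *Styk1* were lower in such cells in every library. Not all genes followed the sum. *Klre1* was at 165 CPM in such cells against 123 CPM in the rest in sIL-2 cells, and at 92.1 against 71.8 CPM in IL-2/21-Trikine cells. In sIL-2 + IL-21 cells it was at 94.5 against 120.3 CPM. *Klra5*, *Klrh1* and *Klrg1* were likewise higher in such cells in the sIL-2 and IL-2/21-Trikine libraries and lower in the sIL-2 + IL-21 library. Among cells without UMIs of *Mki67* and *Top2a*, the log2 ratio of the sum for sIL-2 + IL-21 over sIL-2 was -0.15, and for IL-2/21-Trikine over sIL-2 + IL-21 it changed sign, from 0.09 to -0.12. The difference between IL-2/21-Trikine and sIL-2 was -0.28 there and -0.32 in all cells.

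In cells without UMIs of *Mki67* and *Top2a*, 0 of the 10 genes were higher and 5 lower in IL-2/21-Trikine cells than in sIL-2 cells. In the background, 3.3% of 11166 genes were higher and 9.22% lower. Against sIL-2 + IL-21, 0 were higher and 6 lower, with 4.19% and 7.74% in the background. For sIL-2 + IL-21 over sIL-2, 3 were higher and 0 lower, with 5.75% and 7.86% in the background, so none of the 5 genes counted as lower in all cells was past that limit here. *Klra7* was among the 6 lower and the 3 higher genes, and rested on 32, 29 and 49 UMIs in these cells (sIL-2, IL-2/21-Trikine, sIL-2 + IL-21). *Klra5* kept its low level in IL-2/21-Trikine cells, at 37.0 CPM against 133 CPM in sIL-2 cells and 197 CPM in sIL-2 + IL-21 cells. *Klre1* was at 71.8 CPM in IL-2/21-Trikine cells, against 123 and 120.3 CPM, and *Klrb1c* was at 5.14 CPM, against 4.69 CPM in sIL-2 cells and 12.7 CPM in sIL-2 + IL-21 cells. *Styk1* was at 35.1 CPM against 58.1 and 48.1 CPM, and *Klrh1* at 2.42 CPM against 7.85 and 6.39 CPM. The cells without UMIs of *Mki67* and *Top2a* were shallower, with medians of 10178.5, 7559 and 8797 UMIs, and the part of cycling or depth in these differences was not tested.

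**Figure D3:**
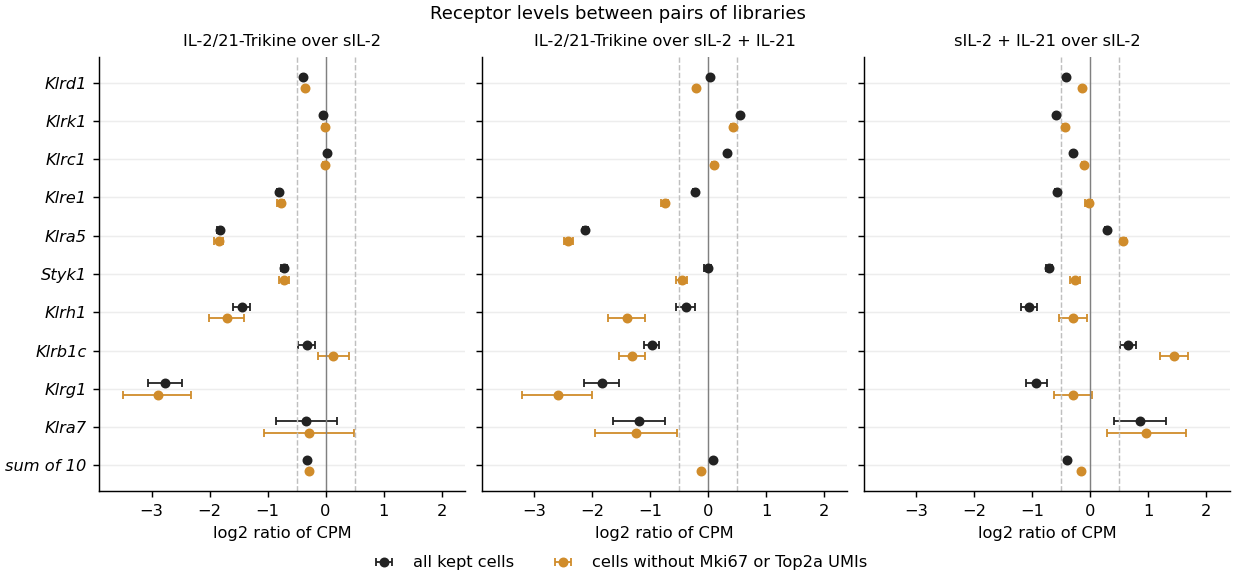
Log2 ratio of CPM of the 10 receptor genes and their sum for each pair of libraries, over all kept cells (black) and over cells without UMIs of *Mki67* or *Top2a* (orange), with exact 95% intervals for counting error and dashed lines at 0.5 and -0.5. *Klra5* lies at -1.83 and -2.11 in the first 2 panels in all cells. In the third panel, *Klre1* moves from -0.58 to -0.03 once cells with those UMIs are left out.

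To place the receptors among cell states, all cells were clustered without these 10 genes, any other Klr gene or the markers used for names, which gave 12 clusters. Names ending in -like rest on those markers, and clusters without a name are given by number. Cluster 9 is also given by number, although hemoglobin genes led it, because 8792 of its 8793 hemoglobin UMIs came from 1 sIL-2 barcode. Of its 52 sIL-2 cells, 845 IL-2/21-Trikine cells and 57 sIL-2 + IL-21 cells, 69.2%, 78.7% and 75.4% had a UMI of *Cd3e*, *Cd3d* or *Cd3g*. Cluster 7 had the highest summed receptor level in every library, at 3544 CPM [3515, 3573] in sIL-2 cells, 2811 CPM [2774, 2849] in IL-2/21-Trikine cells and 3252 CPM [3218, 3285] in sIL-2 + IL-21 cells. It had no name, and the 10 genes of highest fold in it were *Klrh1*, *Styk1*, *Gm36723*, *Klra5*, *Itgb3*, *Serpine2*, *Dlg2*, *Klre1*, *Upp1* and *Gm6634*, of which 4 are receptors that had not entered the clustering. Cluster 7 held 11.8% of sIL-2 cells, 3.96% of IL-2/21-Trikine cells and 9.12% of sIL-2 + IL-21 cells. At least 3 receptor genes were found in 63.7%, 58.6% and 61.9% of its thinned cells. By contrast, cluster 1, early activated-like and led by the cytokine and chemokine genes *Il3*, *Il2* and *Ccl3*, had 2036, 1560 and 1646 CPM, and at least 3 receptor genes in 33.8%, 22.5% and 26.4% of its thinned cells. The mean number per thinned cell was 2.89, 2.72 and 2.87 in cluster 7 and 2.04, 1.75 and 1.81 in cluster 1.

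The receptors did not share a single pattern across clusters. *Klrk1* was highest in cluster 3, stem-like with *S1pr1*, *Klf2* and *Tcf7* among its leading genes, at 853 CPM in sIL-2 cells, 856 CPM in IL-2/21-Trikine cells and 695 CPM in sIL-2 + IL-21 cells, and lowest among clusters of at least 50 cells in cluster 6 in sIL-2 cells (302 CPM) and IL-2/21-Trikine cells (348 CPM). *Klra5* had another order. It was at 66.5, 14.8 and 87.2 CPM in cluster 3, and at 250.4, 131 and 246 CPM in cluster 6, which was terminal cytotoxic-like and led by the granzyme genes *Gzmg*, *Gzmd* and *Gzmf*. *Klrc1* was also higher in cluster 3 than in cluster 6, with 517, 539.5 and 521 CPM in cluster 3 and 242, 322 and 265 CPM in cluster 6. *Klrg1* reached 20.5 CPM in cluster 6 in sIL-2 cells, against 1.74 and 3.71 CPM there in the other libraries. Cluster 4, interferon-like, had the second highest summed level, at 3025 CPM [3005, 3045], 2615 CPM [2592, 2638] and 2737 CPM [2691, 2785]. Each of these intervals overlapped that of another cluster, so the rank was within counting error. Such was cluster 5 in sIL-2 cells (2969 CPM [2920, 3018]) and sIL-2 + IL-21 cells (2723 CPM [2694, 2752]). In IL-2/21-Trikine cells it was cluster 3 (2598 CPM [2573, 2624]). Cluster 4 also had the highest *Klrd1* after cluster 7 in IL-2/21-Trikine cells (1333 CPM) and sIL-2 + IL-21 cells (1462 CPM).

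**Figure D4:**
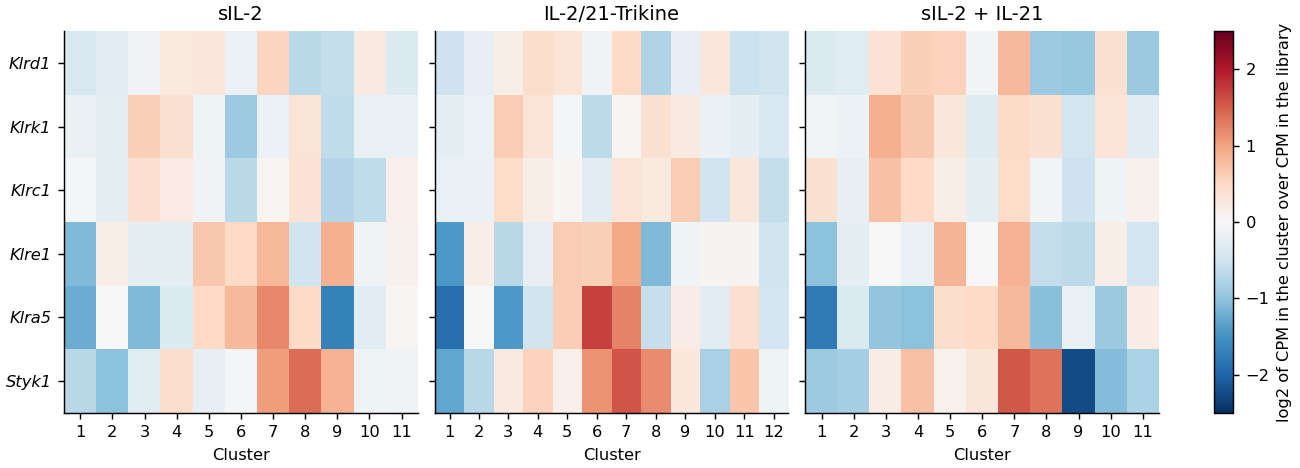
Log2 of the CPM of 6 receptor genes in a cluster over the CPM in the whole library, for each library and each cluster of at least 50 cells (color scale from -2.5 to 2.5). *Klrk1* and *Klrc1* are red in cluster 3, *Klra5* is red in clusters 6 and 7 and blue in clusters 1 and 3, and *Styk1* is red in clusters 7 and 8. Clusters 8 and 9 had medians of 1252 and 766 UMIs per cell.

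The clusters had different shares in the 3 libraries, so levels were also compared within each of the 11 clusters that had at least 50 cells in every library. *Klra5* was lower in IL-2/21-Trikine cells than in sIL-2 + IL-21 cells in 11 of 11 clusters, at log2 ratios of -2.56 to -0.91, and than in sIL-2 cells in 10 of 11, the exception being cluster 9, of low depth, at 45.9 and 44.5 CPM. In cluster 7 it was at 327 CPM in sIL-2 cells, 94.1 CPM in IL-2/21-Trikine cells and 305 CPM in sIL-2 + IL-21 cells. Each library was also given the same cluster weights. The weight of each of the 12 clusters was its mean share of UMIs over the 3 libraries. With these shared weights, the log2 ratios of *Klra5* in IL-2/21-Trikine cells were -1.62 to sIL-2 and -1.57 to sIL-2 + IL-21, against -1.83 and -2.11 over whole libraries. For sIL-2 + IL-21 over sIL-2, the log2 ratio of *Klra5* was -0.05 with the shared weights and 0.28 over whole libraries. Within single clusters it was above 0 in 4 and below 0 in 7 of 11. Among cells without *Mki67* or *Top2a* UMIs it was 0.57 [0.52, 0.62]. The part of cluster shares in this difference was not tested. *Klre1* was lower in IL-2/21-Trikine cells than in sIL-2 cells in 11 of 11 clusters, at -1.79 to -0.66. *Klrk1* was higher in IL-2/21-Trikine cells than in sIL-2 + IL-21 cells in 11 of 11, at 0.07 to 1.24. The sum was lower in sIL-2 + IL-21 cells than in sIL-2 cells in 11 of 11, at -0.71 to -0.07. Without cluster 9, a choice made after the values were seen, *Klra5* was lower in IL-2/21-Trikine cells than in sIL-2 cells in 10 of 10 clusters, at -2.90 to -0.93, *Klre1* was lower by the same comparison in 10 of 10, at -1.39 to -0.66, and *Klrk1* was higher than in sIL-2 + IL-21 cells in 10 of 10, at 0.07 to 0.61. *Klrc1*, by comparison, gave log2 ratios of 0.10 and 0.14 in IL-2/21-Trikine cells with equal weights, against the same 2 libraries in that order.

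Cells with *Klra5* also differed in other genes. Among T cell barcodes, thinned cells with a *Klra5* UMI were set against the rest of their library, 943 sIL-2 cells, 434 IL-2/21-Trikine cells and 1717 sIL-2 + IL-21 cells, a comparison added after the levels were seen. The 10 other genes with the largest excess in all 3 libraries were *Gzmf*, *Gzmd*, *Fcer1g*, *Serpinb9b*, *Klre1*, *Gzme*, *Igsf5*, *Gzmc*, *Spp1* and *Cd244a*, so 4 were granzyme genes. *Gzmf* was higher in cells with *Klra5* by log2 ratios of 1.96 in sIL-2 cells, 2.21 in IL-2/21-Trikine cells and 1.19 in sIL-2 + IL-21 cells. *Gzmc* was higher by 1.46, 1.77 and 0.92, and *Fcer1g*, an ITAM adaptor through which NK1.1 can signal, by 1.45, 2.53 and 1.08. *Tcf7*, a stem and memory factor, had log2 ratios of -1.04, -1.40 and -1.84, and the chemokine genes *Ccl3*, *Ccl4*, *Ccl5* and *Xcl1* were also among the 10 most depleted genes. *Ccl4* had log2 ratios of -1.22, -1.74 and -1.52.

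The same cells can be described by the share with *Klra5*, which for *Fcer1g* and *Gzmc* restates the excess just given. *Klra5* was found in 24.2% [21.5, 27.0] of thinned cells with *Fcer1g* and 10.9% [10.2, 11.7] without it in sIL-2 cells, in 14.6% [11.8, 17.7] and 3.22% [2.90, 3.57] in IL-2/21-Trikine cells, and in 29.9% [27.7, 32.2] and 15.8% [15.0, 16.6] in sIL-2 + IL-21 cells. *Klra5* was found in 21.4%, 6.60% and 22.7% of cells with *Gzmc*, against 7.19%, 1.92% and 8.05% of cells without. The lower share in IL-2/21-Trikine cells thus held among *Gzmc*-positive and *Gzmc*-negative cells alike. For *Ikzf2*, which encodes Helios, the shares with and without were 19.98% and 11.5% in sIL-2 cells, 7.17% and 3.13% in IL-2/21-Trikine cells, and 26.2% and 16.9% in sIL-2 + IL-21 cells. These are shares within single libraries, and cells of 1 library are not replicates.

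**Figure D5:**
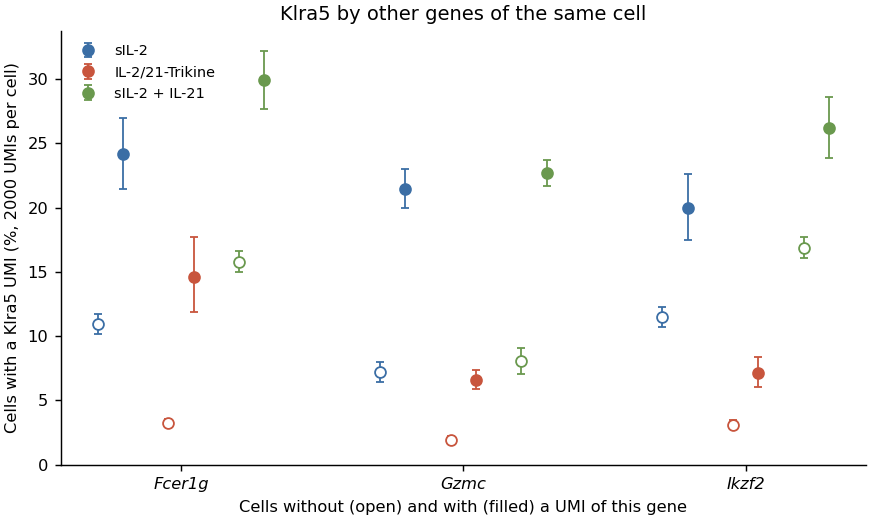
Share of cells (percent) with a *Klra5* UMI among thinned cells without (open points) and with (filled points) a UMI of *Fcer1g*, *Gzmc* or *Ikzf2*, in the 3 libraries, with exact 95% intervals for counting error. Each filled point lies above its open point, from 3.22% to 14.6% for *Fcer1g* in IL-2/21-Trikine cells, and the IL-2/21-Trikine points lie below those of the other libraries for the same cells.

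For the number of receptors rather than a single one, thinned cells with at least 2 of the 10 genes were set against cells with none, 5976 against 282 in sIL-2 cells, 8690 against 518 in IL-2/21-Trikine cells and 6860 against 576 in sIL-2 + IL-21 cells. The 10 genes with the largest excess in all 3 libraries were *Gm36723*, *Rab27b*, *Gm33104*, *Surf1*, *Gm17745*, *Gm36347*, *Tmem71*, *Itga1*, *Gm20139* and *Dapk2*. *Rab27b*, a small GTPase gene of granule release, was at 45.01 CPM against 10.6 CPM in sIL-2 cells, 43.1 against 19.3 CPM in IL-2/21-Trikine cells and 37.1 against 14.8 CPM in sIL-2 + IL-21 cells. *Itga1*, the CD49a chain of tissue-resident lymphocytes, was at 81.2 against 40.8 CPM, 43.7 against 21.2 CPM and 38.8 against 15.6 CPM. Cells with none included myeloid barcodes, with *Cxcl2*, a myeloid marker here, at 752 CPM in the sIL-2 library, against 0.418 CPM in its cells with receptors. In the same library, the 6 melanoma markers summed to 99.3 CPM in cells with none and 2.09 CPM in cells with receptors, and the 4 hemoglobin genes to 3044 CPM and 1.09 CPM. Nearly all hemoglobin UMIs of that library, 8792 of 8940, came from 1 barcode. Limited to T cell barcodes, 9 of the 10 genes were the same. In such barcodes, *Il2* was at 184, 109 and 111 CPM in thinned cells with none (sIL-2, IL-2/21-Trikine, sIL-2 + IL-21). In cells with at least 2 receptor genes it was at 18.9, 12.2 and 10.8 CPM. The counts behind the thinned cells with none were small, with 2 UMIs of *Gm36347* in sIL-2 cells. Having none refers to the thinned counts only. Without thinning, 87, 360 and 160 cells of the whole libraries had none of the 10 genes. Most of the 282 sIL-2 cells and 576 sIL-2 + IL-21 cells with none thus carried a receptor UMI at full depth. For IL-2/21-Trikine cells these counts do not settle it, since shallower cells are among the 360.

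By marker, the number of receptor genes was higher in cells with *Fcer1g*, at 2.66, 2.51 and 2.55 against 2.37, 2.16 and 2.15 genes without it. It was also higher in cells with *Pdcd1*, the PD-1 gene, by 1.13, 1.10 and 1.07 times, with *Gzmc* by 1.16, 1.11 and 1.09 times, and with *Il7r*, the IL-7 receptor gene, by 1.08, 1.10 and 1.09 times. For *Tcf7* the values were 0.955, 0.974 and 0.993 times, and for *Zeb2* 0.938, 0.939 and 0.968 times. *Tyrobp*, another ITAM adaptor gene, did not follow *Fcer1g*, at 0.955, 0.926 and 1.07 times with few positive cells (79, 76 and 79). At least 1 receptor gene was found in 89.9%, 86.8% and 88.6% of cells with *Tyrobp*, against 96.3%, 95.6% and 93.9% without it. These values by marker cover all thinned cells, myeloid barcodes included, so a difference between the adaptors among T cells was not tested. Cells with at least 2 receptor genes were also compared with cells with none, over all thinned cells and not T cell barcodes only. The 12 myeloid markers summed to 1496, 479 and 845 CPM in cells with none. In cells with at least 2 receptor genes they summed to 15.6, 16.0 and 15.0 CPM. The part of myeloid barcodes in the ratios that follow was not tested. Summed over 8 innate-like markers, including both adaptor genes, the log2 ratios of cells with at least 2 receptor genes over cells with none were -0.30, -0.08 and 0.30. Over 11 other NK-associated receptors they were -0.28, -0.23 and 0.06. Across the 34 sums of a cluster in a library with at least 50 cells, the genes whose log2 level was most correlated with the summed receptors were *Ypel3* (Pearson's r of 0.876), *Tmem59* (0.865), *Rnf114* (0.856), *Shisa5* (0.852) and *Arl6ip5* (0.852). These points share libraries and depth, so this is a description.

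Of 61 further genes of the same pathway in 5 lists, 44 were at 1 CPM or more. With IL-2/21-Trikine over sIL-2, 3 of the 44 were higher and 12 lower, beside 3.45% and 7.42% of all genes in the background. Over sIL-2 + IL-21, 9 were higher and 5 lower, beside 4.65% and 5.66%. In sIL-2 + IL-21 cells against sIL-2 cells, 3 were higher and 21 lower, beside 7.29% and 11.3%. In the first comparison, the 3 higher genes, *Klrb1f*, *Klri2* and *Klra3*, were all other Klr genes. Of those other Klr genes, 6 were at 1 CPM or more, 0 were lower and the median log2 ratio was 0.46. The 10 receptor genes had 0 higher and 5 lower there, so the other Klr genes did not share that direction. Among adaptors, *Fcer1g* had the pattern of *Klra5*, at 176 CPM in sIL-2 cells, 56.1 CPM in IL-2/21-Trikine cells and 189 CPM in sIL-2 + IL-21 cells. The NKG2D adaptor gene *Hcst* was at 205 CPM, 184 CPM and 147 CPM, an order it shared with *Klrk1*. The phosphatase genes *Ptpn6* and *Ptpn11*, which act behind inhibitory receptors, had log2 ratios between -0.15 and 0.01 in all 3 comparisons, while the inositol phosphatase gene *Inpp5d* was at 115, 77.2 and 76.5 CPM.

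Among ligands that the T cells themselves expressed, the Qa-1 gene *H2-T23* was at 258 CPM in sIL-2 cells, 205 CPM in IL-2/21-Trikine cells and 135 CPM in sIL-2 + IL-21 cells, so it was lowest where *Klrc1* was lowest. *Clec2d*, which encodes a ligand of NKR-P1 receptors, was at 81.9, 72.7 and 41.2 CPM. *Ulbp1*, the gene of the NKG2D ligand MULT1, was at 42.2, 43.8 and 44.2 CPM. Of 8 ligand genes at 1 CPM or more, 6 were lower in sIL-2 + IL-21 cells than in sIL-2 cells, beside 11.3% of all genes in the background.

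Among receptors outside the set, *Klrc2*, another partner of CD94, was at 78.4, 74.4 and 52.5 CPM, and its reads may be shared with the paralog *Klrc1*. *Klri2*, a gene of the receptors that pair with the *Klre1* product, was at 8.50, 14.1 and 10.7 CPM, highest in IL-2/21-Trikine cells, where *Klre1* was lowest. *Cd244a*, the 2B4 gene, was at 24.4 CPM in sIL-2 cells, 13.2 CPM in IL-2/21-Trikine cells and 29.0 CPM in sIL-2 + IL-21 cells, lowest in IL-2/21-Trikine cells like *Klra5*. *Il2rb*, the IL-2Rβ chain gene, was at 497, 327 and 404 CPM. *Cd160* was at 221, 191 and 137 CPM. Among transcription factors, *Tox* was at 33.1, 46.7 and 13.1 CPM, where the second lay 1.83 above the third on the log2 scale, and *Tbx21*, the T-bet gene, was at 77.4, 56.0 and 69.5 CPM. *Runx3* was at 182, 145 and 224 CPM, in the order of *Klra5*, and *Ikzf2* at 122, 163 and 111 CPM, in the reverse order. These orders rest on 3 libraries and carry no test.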

How the data were processed

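Single-cell libraries were made with the 10x Genomics 3′ v3.1 chemistry, and the authors deposited gene-by-cell UMI counts from Cell Ranger, not normalized. The methods name the mouse reference GRCm39 with intronic reads counted, whereas the labels list mm10, and which was used was not settled here; no gene coordinates of the counts are printed. Cells with 500 to 120000 UMIs and at most 20% mitochondrial UMIs were kept, after the limits of the study, which left 7760, 13299 and 9798 cells with totals of 130200802, 166772854 and 168041089 UMIs (sIL-2, IL-2/21-Trikine, sIL-2 + IL-21). UMIs were summed per library and given as CPM, with exact Poisson (levels), conditional binomial (ratios) and Clopper-Pearson binomial (shares) 95% intervals, which cover counting error only. With 1 library per group, no test between groups was made, and a log2 ratio of 0.5 was used as a size limit. For shares and numbers of receptors, 2000 UMIs were drawn at random from each cell and shallower cells were left out. Clusters were made with scanpy 1.11.5 (2000 variable genes, Leiden). Doublets were not removed: Scrublet marked 4, 0 and 1150 cells, so the 8% with the highest scores were left out as an alternative. T cell barcodes had a UMI of *Cd3e*, *Cd3d* or *Cd3g* and fewer than 3 myeloid markers. Promoter stretches were taken from RefSeq (GRCm38.p6) and aligned with Biopython 1.88. The genes named besides the 10 were pathway genes of at least 20 CPM in a library, with a few below that limit named after their values were seen, the 10 genes most enriched in receptor-bearing cells in every library and the 5 most correlated genes. The members and lists were chosen with earlier results of these data known. The companions of *Klra5*, the concentration of UMIs, the count without *Klrd1*, *Klrk1* and *Klrc1* the restriction of receptor-bearing cells to T cell barcodes and the within-cluster counts without cluster 9 were added after seeing the data. Scripts were tested on simulated data.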

Additional observations from a re-analysis of the deposited data

How the results depend on the processing

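With 1 library per group, the limits here are counting error and depth, and no replicate could be left out. For the summed receptor level, the log2 ratios for IL-2/21-Trikine over sIL-2, IL-2/21-Trikine over sIL-2 + IL-21 and sIL-2 + IL-21 over sIL-2 became -0.28, -0.12 and -0.15 without cells with *Mki67* or *Top2a* UMIs, and -0.26, 0.034 and -0.29 with each cell weighted equally. The first and the third became -0.24 and -0.32 with median-of-ratios size factors and -0.30 and -0.39 without the cells of highest Scrublet score. For receptors per cell, the 3 ratios became 0.847, 0.812 and 1.04 with no thinning and 0.553, 0.530 and 1.04 without *Klrd1*, *Klrk1* and *Klrc1*. The second and the third became 0.927 and 0.990 at 5000 UMIs and 0.919 and 0.992 without cells with *Mki67* or *Top2a* UMIs. The third became 0.892 at 1000 UMIs. The causes were not tested. Of the 17 ratios of single receptor genes past 0.5, 17 kept their sign and 10 stayed past 0.5 in 7 alternatives, which were 5 of 5, 4 of 5 and 1 of 7 in the 3 comparisons. The highest summed level of a cluster was 2622 to 3088 CPM at a resolution of 0.5 (8 clusters) and 2996 to 3602 CPM at 1.5 (18 clusters).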
